A study of Mus musculus with 9 samples.

Results

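The nuclei described here held RNA of Tshz2 and Vwc2l, a pair of genes that mark near-projecting neurons of the deep cortical layers, together with RNA of Slc17a7, the vesicular glutamate transporter of most cortical excitatory neurons. They came from single-nucleus RNA sequencing (snRNA-seq) of pooled cortex and hippocampus, in which RNA molecules were counted per nucleus as unique molecular identifiers (UMIs). Nuclei with 200 to 5000 genes and at most 10% of UMIs from mitochondrial genes were kept, which left 74895 of 77823 barcodes. A kept nucleus was a member with at least 2 UMIs of Slc17a7, at most 1 UMI of Gad1 and Gad2 together, at least 5 UMIs of Tshz2, at least 3 UMIs of Vwc2l and 0 UMIs of Prox1, unless it held at least 5 UMIs of Hs3st4 with at least 3 of Foxp2. Gad1 and Gad2 make GABA, Prox1 marks dentate granule cells, and Hs3st4 with Foxp2 marks corticothalamic neurons of layer 6. The rule found 237 nuclei among the 74895 kept, and among 8964 kept nuclei that passed the Slc17a7 and Gad limits (Slc17a7 neurons). They are called Tshz2+Vwc2l+ neurons below, because their other markers did not uphold a single cell type.

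The 9 libraries came from 9 male wild-type C57BL/6 mice, 3 in each of 3 groups. Young mice, 5 months old when the tissue was taken, and aged mice, 19 months old, received AAV-EGFP, which carries a fluorescent protein. A further group of aged mice, also 19 months old, received AAV-B3GNT3, which carries a glycosyltransferase that extends core 1 O-glycans of mucin-domain proteins. The study obtained its aged mice from the National Institute on Aging and its young mice from Jackson Laboratories. Age and source therefore cannot be told apart in comparisons of aged with young mice. All 3 groups carried a virus, given 8 weeks before the tissue was taken, with a capsid that enters brain blood vessels and a shortened promoter of the endothelial gene Cldn5, so that neurons were not the intended site of the transgene. Mice without virus, female mice and young mice with AAV-B3GNT3 were not analysed here. In the 237 nuclei the endogenous gene B3gnt3 had 2 UMIs in all.

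Near-projecting neurons are a small class of glutamatergic cells in layers 5 and 6 whose axons stay mostly within the cortex close to the cell body, in contrast to extratelencephalic cells that project to brainstem and thalamus and to intratelencephalic cells that link cortical areas. Tshz2 encodes a zinc-finger transcription factor of the teashirt family and Vwc2l a secreted protein with a von Willebrand factor C domain. Tshz2 is also expressed in neurons outside this class, including superficial neurons of the retrosplenial cortex and neurons of the subiculum, so other markers are needed to tell these cells apart.

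The thresholds on Tshz2 (ENSMUSG00000047907, chr2:169633013-170071816, plus strand, GRCm38) and Vwc2l (ENSMUSG00000045648, chr1:70725715-70885397, plus strand) are among the measured values that chose the members. Members were selected on these counts, so their levels are a description. Per member nucleus, Tshz2 ranged from 5 to 116 UMIs with a median of 31, and Vwc2l from 3 to 67 with a median of 9. Just inside the Tshz2 threshold stood 2 members with 5 UMIs, and 8 nuclei that met every other condition stood just outside with 4. For Vwc2l, 31 members had 3 UMIs and 31 nuclei had 2. Tshz2 was thus far above its limit in most members. Vwc2l was above its limit in most, but as many nuclei stood just inside that limit as just outside. Slc17a7 was not far above its limit: members held 2 to 6 UMIs with a median of 2, which is the threshold itself.

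Of 1420 kept nuclei that passed the Tshz2 and Vwc2l limits, 79 had too many Gad UMIs. A further 606 had 0 UMIs of Slc17a7 and 438 had 1, so that 1 more or 1 fewer molecule of a sparsely counted transcript decided many memberships. Prox1 took out 21 more, and the limit on Hs3st4 with Foxp2 took out 39. Above the upper limit of 5000 genes stood 69 nuclei that met the rest of the rule. Members had a median of 12162 UMIs (3034 to 24141) and 3647 genes.

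Genes that the rule did not use gave a mixed identity (the plot of marker levels). Levels are CPM, a gene's UMIs relative to all UMIs of a library's member nuclei at the usual scaling, with totals adjusted by TMM, as mean ± SD over 9 libraries. They are set beside 1180 layer 6 corticothalamic nuclei (the Hs3st4 and Foxp2 condition among Slc17a7 neurons), 6854 other Slc17a7 neurons, both limited to nuclei with 0 UMIs of Prox1, and 9376 oligodendrocyte nuclei, in which free RNA in the suspension shows as background. The corticothalamic nuclei include 39 that also passed the Tshz2 and Vwc2l limits. These are comparisons of one gene across gates. No test was run, since the gate chose the nuclei.

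**Figure D1:**
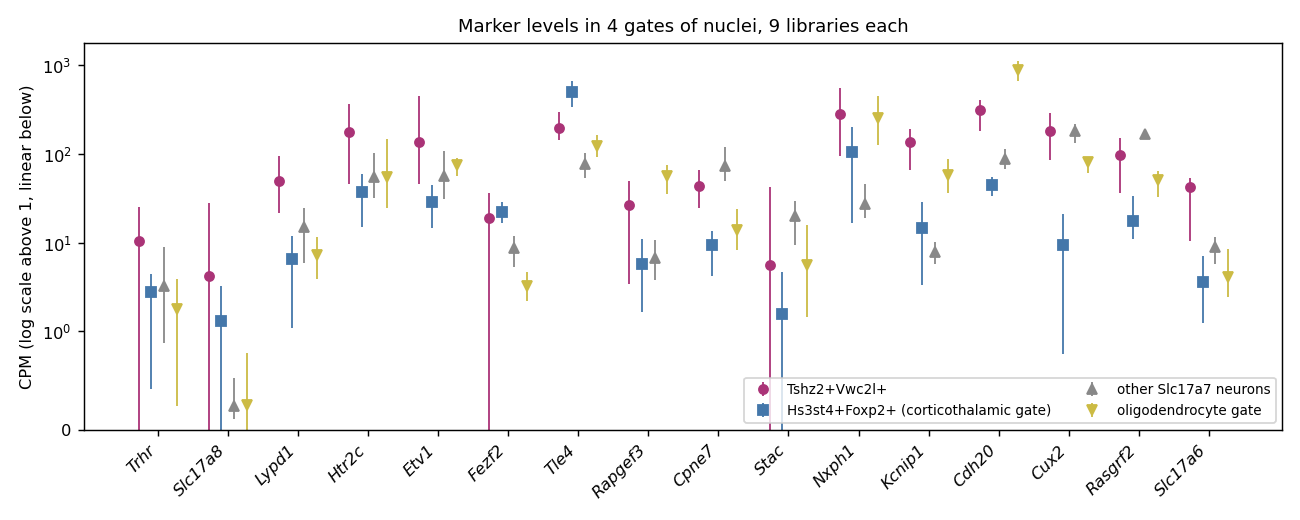
CPM of marker genes (vertical axis, log scale above 1 and linear below) in Tshz2+Vwc2l+ neurons, corticothalamic neurons, other Slc17a7 neurons and oligodendrocytes. Points are means over 9 libraries and bars reach from the lowest to the highest library; Htr2c, Lypd1 and Slc17a6 stood highest in the Tshz2+Vwc2l+ neurons, and Cux2 was as high there as in the other Slc17a7 neurons.

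Htr2c, a serotonin receptor, was at 178 ± 107 CPM in members, against 37.1 in corticothalamic and 55.2 in other Slc17a7 neurons, and was higher in members in 9 of 9 libraries against both. Lypd1, a modulator of nicotinic receptors, was at 48.9 ± 21.4 CPM, against 6.48 and 14.9, also in 9 of 9 libraries. Etv1, a transcription factor of layer 5 neurons, was at 137 ± 124 against 28.5 and 56.1. Etv1 too was higher in 9 of 9 libraries against both neuronal gates. In the oligodendrocyte gate the means were 54.4 CPM for Htr2c, 7.25 for Lypd1 and 74.9 for Etv1. Member levels lay above every oligodendrocyte library in 9 of 9 libraries for Lypd1, in 5 of 9 for Htr2c (oligodendrocyte range 24.6 to 146 CPM) and in 4 of 9 for Etv1 (55.7 to 89.7 CPM). Depth was unlike, with library medians of 2233.5 to 3131.5 UMIs per oligodendrocyte nucleus and 11115.5 to 15598.5 per member. The same number of free RNA molecules therefore gives a higher CPM in oligodendrocytes, and its part was not tested.

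Trhr, the receptor of thyrotropin-releasing hormone and one of the most specific markers of near-projecting cells, had only 39 UMIs in all members. It was found in 10.5% of members, against 2.37% of corticothalamic, 2.35% of other Slc17a7 and 0.491% of oligodendrocyte nuclei. With every nucleus thinned to 4000 UMIs, which leaves out 1 member and all but 1983 oligodendrocytes, the shares were 2.12% of members and 0.656% of oligodendrocytes. Slc17a8, the third vesicular glutamate transporter, had 12 UMIs and Sla2 had 4. Tle4, a corepressor of deep-layer neurons, was at 198 ± 51.5 CPM, between 493 in corticothalamic and 77.6 in other Slc17a7 neurons. Cpne7 was at 43.8 ± 14.2 CPM against 73.8 in other Slc17a7 neurons, and Stac at 5.56 ± 14 against 19.9.

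Markers of superficial and intratelencephalic neurons were also present. Cux2, a homeobox gene of upper-layer neurons, was at 179 ± 72.3 CPM in members and 180.4 in other Slc17a7 neurons, with 9.38 in corticothalamic neurons. Rorb, a nuclear receptor of layer 4 neurons, was at 173 ± 120 against 239 CPM in other Slc17a7 neurons, and Rasgrf2 at 96.6 ± 42.1 against 169. Slc17a6, the second vesicular glutamate transporter, was at 42.7 ± 12.7 CPM against 3.58 and 8.84, higher in 9 of 9 libraries. Plch1, listed for retrosplenial cortex, was at 27.0 ± 17.7 CPM against 10.9, and Fn1, listed for the subiculum, at 21.7 ± 13 against 3.46. The layer 6b genes Cplx3 and Nxph4, the retrosplenial gene C1ql2 and the subicular gene Nts had 0 UMIs in members. Svil, also on the layer 6b list, had 65 UMIs and was at 23.7 ± 16.2 CPM against 43.6 in corticothalamic, 12 in other Slc17a7 and 61.5 in oligodendrocyte nuclei. Pou3f1, a transcription factor listed for layer 5 extratelencephalic neurons, was at 20.4 ± 8.40 CPM against 1.42, 7.40 and 25.0, higher in 9 of 9 libraries against both neuronal gates. The other 3 genes of that list were not above both gates in every library: Bcl11b was at 145 ± 47.7 CPM against 269, 146 and 62.8, Bcl6 at 11.8 ± 8.14 against 3.15, 16 and 36.4, and Parm1 at 43.7 ± 23.3 against 25.4, 33.5 and 65.8. Of 3 corticothalamic genes that the rule did not use, Rprm and Syt6 were at 2.57 and 3.76 CPM against 11.4 and 129 in corticothalamic nuclei. The third, Zfpm2, was at 523 ± 246 CPM, below the 1555 of corticothalamic nuclei in 9 of 9 libraries and above the 189 of other Slc17a7 neurons in 9 of 9. Hs3st4 and Foxp2, which the rule limits only jointly, were at 1046 ± 468 and 40.7 ± 17.6 CPM, against 665 and 13.9 in other Slc17a7 neurons.

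Counted per nucleus, few members were high in both Tle4 and Cux2. With at least 3 UMIs of Tle4 and at most 1 of Cux2 there were 60 nuclei (25.3% of members), and with at least 2 UMIs of Cux2 and at most 2 of Tle4 there were 94 (39.7%). Both thresholds were reached by 4 nuclei and neither by 79. These are called Tle4-high and Cux2-high nuclei. The names refer to these counts and not to absence of the other gene: 43.6% of Cux2-high nuclei held at least 1 Tle4 UMI, and 10% of Tle4-high nuclei a Cux2 UMI. The thresholds were chosen after the counts were seen, 21 members had 2 UMIs of Tle4 and 29 had 1 UMI of Cux2, and the subsets are ranges of counts with no test between them.

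**Figure D2:**
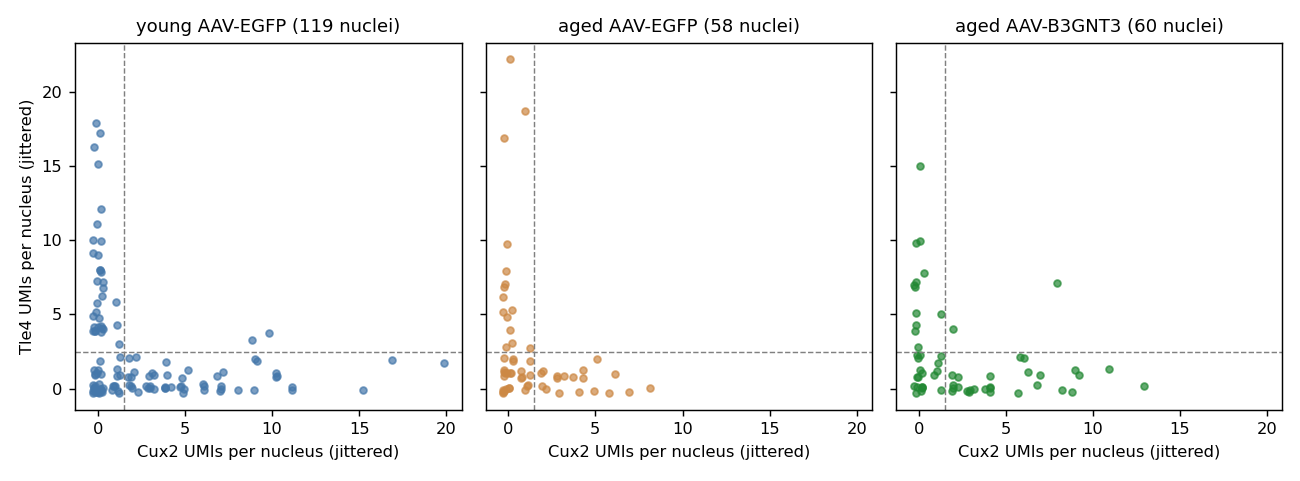
Tle4 UMIs (vertical axis) against Cux2 UMIs (horizontal axis) in single Tshz2+Vwc2l+ nuclei, 1 point per nucleus with a small jitter, in a panel for each group. Of 237 nuclei, 60 were Tle4-high, 94 Cux2-high and 4 passed both thresholds.

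The subsets differed in genes that had not defined them (CPM of the summed UMIs of a subset, over all libraries, with unscaled totals). Tle4-high nuclei were high in Nxph1, a ligand of neurexins, at 968 CPM against 27.7 in Cux2-high nuclei. Kcnip1, a potassium channel partner, stood at 513 against 5.70 CPM, and the kainate receptor gene Grik1 at 1064 against 68.4. Htr2c was at 434 against 97.0 CPM, Lypd1 at 94.5 against 27.7, Etv1 at 209 against 11.4 and Bcl11b, a transcription factor of deep-layer projection neurons, at 398 against 31.0. All 12 UMIs of Slc17a8 lay in Tle4-high nuclei. Not all genes of the near-projecting list followed this split. Trhr was at 16.5 CPM (11 UMIs) in Tle4-high and 15.5 (19 UMIs) in Cux2-high nuclei, and Cpne7 was lower in Tle4-high nuclei, at 21.0 against 53.8 CPM. Etv1 had 139 UMIs in Tle4-high nuclei and 160 in the nuclei that reached neither threshold.

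Cux2-high nuclei were higher in Cdh20, a cadherin, at 489.7 CPM against 76.5 in Tle4-high nuclei. Cux1 was at 299.9 against 111 CPM, Rasgrf2, an exchange factor of upper-layer neurons, at 129 against 52.5, and Plch1 at 57.9 against 7.5. Hs3st4, which the rule limits only together with Foxp2, was at 125 CPM there and 3191 in Tle4-high nuclei. The 79 nuclei that reached neither threshold, of which 46.8% still held Tle4 UMIs and 29.1% Cux2 UMIs, lay near the Cux2-high nuclei for Mpped1 (179 against 133 CPM), and between the subsets for Etv1 (159 CPM). In the oligodendrocyte gate Cdh20 was at 881 CPM and Nxph1 at 256, so neither gene is particular to these neurons, and the part of oligodendrocyte RNA in their levels was not tested. Median depth was 10474.5 UMIs in Tle4-high and 12449.5 in Cux2-high nuclei.

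The 39 nuclei that the Hs3st4 and Foxp2 limit had left out carried several near-projecting markers. Trhr was found in 43.6% of them at 53.6 CPM, and Slc17a8 in 17.9% at 29.6 CPM. Nxph1 was at 1810.5 CPM, Htr2c at 495, Tle4 at 551, Kcnip1 at 292 and Cux2 at 25.9. They were spread over all 9 libraries, with 1 to 8 in each. They are among the 1180 corticothalamic nuclei in the comparisons above and below, so the corticothalamic levels of these markers include them.

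Several features of the libraries bear on what follows. Libraries held 47332047 to 79964605 UMIs in all, and their member sums 100062 to 633979. The member sum of aged AAV-EGFP replicate 1 rested on 9 nuclei. Of the barcodes, 734 occurred in 2 or more libraries. This held for 8 members, while no barcode was a member in 2 libraries. A doublet score marked 5532 barcodes at a preset rate, and 15 of the members were among them. Members with at least 3 UMIs in all of 8 glial and vascular genes (among them Mbp, Mog, Csf1r, Flt1 and Aqp4) numbered 75: 17, 23 and 6 in the young, 2, 6 and 3 in the aged AAV-EGFP and 8, 5 and 5 in the aged AAV-B3GNT3 libraries.

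The first comparison asked whether these neurons took a different share of nuclei with age or with AAV-B3GNT3. The rule found 49, 42 and 28 members in the young libraries, 9, 25 and 24 in the aged AAV-EGFP and 18, 22 and 20 in the aged AAV-B3GNT3 libraries. As a share of kept nuclei this was 0.537, 0.425 and 0.466% in young, 0.125, 0.250 and 0.294% in aged AAV-EGFP and 0.292, 0.220 and 0.240% in aged AAV-B3GNT3 mice. All 3 young libraries lay above all 6 aged ones. The exact 95% binomial interval, which covers counting error only, ran from 0.398 to 0.710% in the highest library and from 0.0573 to 0.238% in the lowest.

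Group means were 0.476% ± 0.0566, 0.223% ± 0.0872 and 0.250% ± 0.0372 (SD, n = 3 mice each), and the groups differed when F was computed for each of the 280 ways to divide the libraries (exact permutation p = 0.0321, smallest possible p 0.00357). Pairwise exact permutation tests of the mean difference gave p = 0.1 for ageing, p = 0.900 for AAV-B3GNT3 against AAV-EGFP in aged mice and p = 0.1 for aged AAV-B3GNT3 against young, where 0.1 is the smallest p that 3 against 3 allow. The 2 aged groups overlapped. Without the members that held glial RNA the shares were 0.303%, 0.181% and 0.171%, and the groups no longer differed past the threshold (exact permutation p = 0.104). With the gate read at unchanged limits after thinning to 4000 UMIs, 28 members remained among 39700 kept nuclei deep enough, and p was 0.818 by the same exact test. So few members leave this test little to decide on. Without the limit of at least 2 UMIs of Slc17a7, p was 0.0571 by the same exact test.

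**Figure D3:**
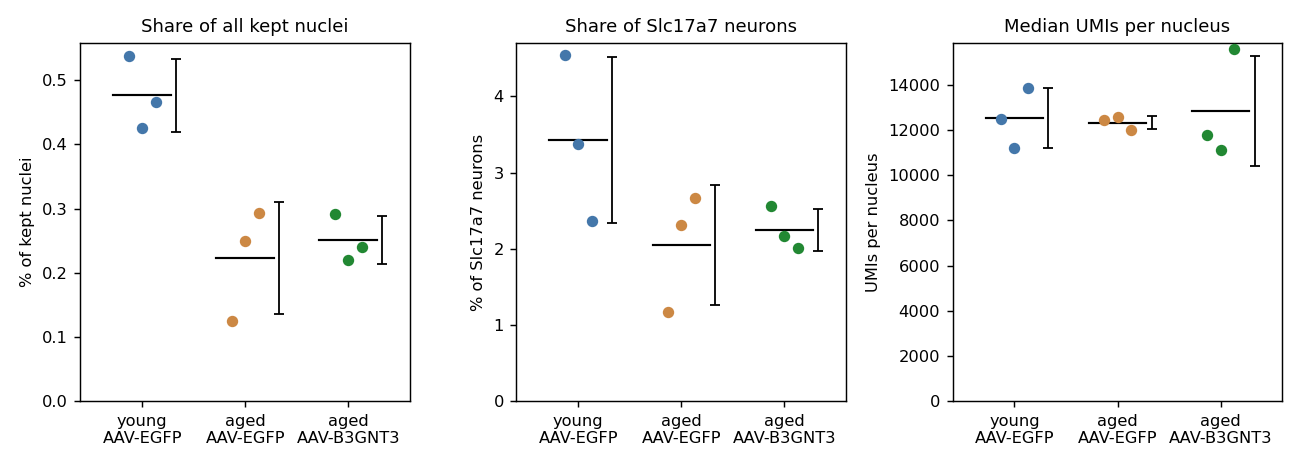
Share of Tshz2+Vwc2l+ neurons among kept nuclei (left, %), among Slc17a7 neurons (middle, %) and their median UMIs per nucleus (right), with 1 point per library, 3 libraries per group and bars for mean and SD. The young libraries, at 0.425% to 0.537% of kept nuclei, lay above all aged libraries, while shares of Slc17a7 neurons and UMIs overlapped.

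Among Slc17a7 neurons, a denominator that leaves out glia and GABAergic nuclei, the shares overlapped. They were 4.54, 3.38 and 2.36% in young, 1.17, 2.31 and 2.67% in aged AAV-EGFP and 2.56, 2.17 and 2.02% in aged AAV-B3GNT3 mice. Means were 3.43% ± 1.09, 2.05% ± 0.781 and 2.25% ± 0.279, with p = 0.132 in the exact permutation test (n = 3 each). With no upper limit on genes per nucleus, p was 0.0179 by the same exact test. Median UMIs per member nucleus did not differ past the threshold: 12523 ± 1326, 12327 ± 304 and 12829 ± 2421 (exact permutation p = 0.979). For the share of Slc17a7 neurons, leaving out 1 library gave an exact permutation p of 0.0321 without young replicate 3, 0.479 without young replicate 1, and 0.1 to 0.243 without each of the others. Without members that held glial RNA it was 0.518, and with thinning 0.954, by the same exact test.

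The makeup of the members varied between libraries of one group. Tle4-high nuclei numbered 12, 11 and 10 in young, 3, 9 and 3 in aged AAV-EGFP and 5, 3 and 4 in aged AAV-B3GNT3 libraries. Their share of members was 28.8% ± 6.05, 27.3% ± 12.9 and 20.5% ± 7.08 (exact permutation p = 0.511, n = 3 each). Cux2-high nuclei numbered 26, 15 and 8 in young, 3, 4 and 11 in aged AAV-EGFP and 10, 12 and 5 in aged AAV-B3GNT3 libraries, and their share did not differ past the threshold either (exact permutation p = 0.518). As a share of kept nuclei, Tle4-high nuclei were at 0.137%, 0.0561% and 0.0530% (unadjusted exact permutation p = 0.0286) and Cux2-high nuclei at 0.190%, 0.0721% and 0.114% (p = 0.132 by the same exact test). The p-values of these 6 subset shares are not adjusted for their number, and the thresholds behind the subsets had been set on the same nuclei.

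Gene levels were compared between ages with edgeR's quasi-likelihood test on UMIs summed per library over the members, with all 9 libraries in 1 fit. Fold changes below are on the log2 scale with SE. Of 4992 genes tested, 0 (0%) had an adjusted p (Benjamini-Hochberg) under 0.05 in aged against young AAV-EGFP mice, and the smallest was 0.0523. At an unadjusted p under 0.05 there were 505 (10.1%), 279 higher and 226 lower in aged mice. In 765 genes (15.3%) the 3 young and 3 aged libraries did not overlap in CPM, with the aged higher in 7.59% and lower in 7.73% of genes tested. DESeq2 on the same sums called 3 (0.0601%), AC149090.1 and Npcd higher (0.0401%) and Dscaml1 lower (0.02%). Npcd, which overlaps Nptxr and Cbx6 on its own strand, had too few UMIs for the rule on named genes and stood at 9.39, 6.08 and 7.54 CPM in young and 21.0, 57.6 and 63.3 in aged AAV-EGFP libraries. The 6 genes below had the smallest p in each direction among genes whose libraries did not overlap, so the lack of overlap is part of their choice, and edgeR called none of them.

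AC149090.1 (ENSMUSG00000095041), a protein-coding gene on an unplaced scaffold of GRCm38, was at 473, 107 and 266 CPM in the young libraries. In the aged AAV-EGFP libraries it was at 954, 1292 and 886 CPM, which gave 1.88 ± 0.34 (adjusted p = 0.0523, edgeR). Aged AAV-B3GNT3 libraries stood at 856, 718 and 855 CPM, between the young and the aged AAV-EGFP ones. It was the most broadly detected of the 6, with UMIs in 215 of 237 nuclei and in all 58 nuclei of the aged AAV-EGFP mice.

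Fth1 (ENSMUSG00000024661, chr19:9980598-9985098, plus strand), the heavy chain of the iron store ferritin, was at 11.0, 28.4 and 12.6 CPM in young and 83.8, 119 and 45.7 in aged AAV-EGFP libraries. The difference was 2.24 ± 0.44 (adjusted p = 0.0710). Aged AAV-B3GNT3 libraries were at 20.7, 16.3 and 20.5 CPM, within the young range. Counts were low, with 95 UMIs in all.

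Zc3h6 (ENSMUSG00000042851, chr2:128967402-129018563, plus strand), a CCCH zinc-finger gene, was at 51.6, 52.7 and 52.7 CPM in young and 115, 158 and 119.6 in aged AAV-EGFP libraries, a difference of 1.35 ± 0.26 (adjusted p = 0.0710). The young libraries hardly differed from each other for this gene. It overlaps other annotated genes on both strands, as Kcnd3, Dscaml1, Mdh1, St6galnac3 and Gpr137c do on at least 1, and UMIs of overlapping genes may be split or lost.

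Dscaml1 (ENSMUSG00000032087, chr9:45426628-45753712, plus strand), a homophilic adhesion molecule of the immunoglobulin superfamily, was lower with age in all libraries: 383, 251 and 229 CPM in young against 83.8, 108 and 106 in aged AAV-EGFP mice. The difference was -1.50 ± 0.26 (adjusted p = 0.0523), and it was the 1 gene past the threshold when young replicate 3 was left out. Aged AAV-B3GNT3 libraries were at 149, 167 and 119.7 CPM, all above the aged AAV-EGFP ones and below the young.

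Swt1 (ENSMUSG00000052748, chr1:151367699-151428455, minus strand), an RNA endonuclease, was at 53.2, 62.8 and 87.9 CPM in young and 21.0, 18 and 17.6 in aged AAV-EGFP libraries (-1.85 ± 0.39, adjusted p = 0.123), the latter from 2, 5 and 5 UMIs. Kcnd3 (ENSMUSG00000040896, chr3:105452330-105674002, plus strand), a pore subunit of A-type potassium channels, was at 347, 296 and 286 CPM in young and 94.3, 179.9 and 151 in aged AAV-EGFP libraries (-1.05 ± 0.24, adjusted p = 0.201). Both genes overlapped the young range in aged AAV-B3GNT3 mice, Swt1 at 49.6, 69.4 and 61.6 CPM and Kcnd3 at 331, 220.4 and 246 CPM. Since ageing and treatment share the aged AAV-EGFP libraries, opposite signs in the 2 comparisons are not independent.

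**Figure D4:**
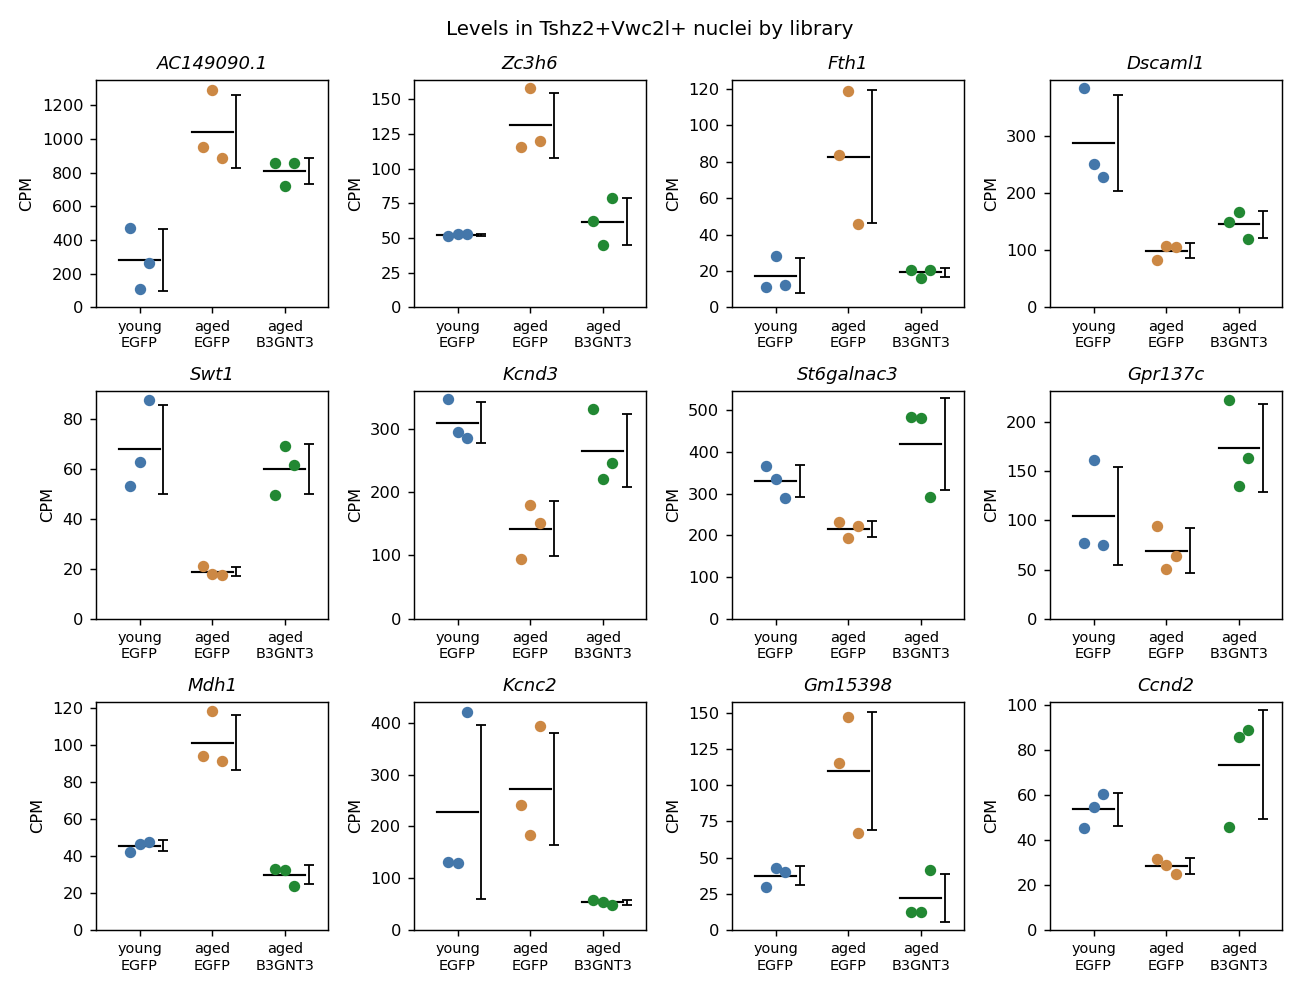
CPM per library of genes named for ageing and for AAV-B3GNT3, and of Ccnd2, in Tshz2+Vwc2l+ neurons (vertical axis of each panel), 1 point per library, 3 libraries per group, bars for mean and SD. All but Ccnd2 were chosen for groups that do not overlap in 1 of these comparisons, and none passed an adjusted p of 0.05 in edgeR.

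The same genes were read in the far larger gates of the same 9 mice. In corticothalamic neurons 6 of 6 had the same sign and 5 passed an adjusted p under 0.05, where 4.15% of 10202 genes did. In other Slc17a7 neurons 6 of 6 had the same sign and 6 passed, where 9.6% of 14958 genes did. No share of all genes with the same sign is set beside these counts, and the gates share libraries with the members, so the sign counts are a description. AC149090.1 rose by 1.87 (adjusted p = 0.00307) in corticothalamic and 1.74 (adjusted p = 0.0152) in other Slc17a7 neurons. Fth1 rose by 1.33 (adjusted p = 0.0203) and 1.23 (adjusted p = 0.00634), and Dscaml1 changed by -0.62 (adjusted p = 0.0140) and -1.07 (adjusted p = 0.00476), all by edgeR. The difference between the change in members and that in the other neurons was called for 0 of the 6 genes against either gate.

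In aged mice, AAV-B3GNT3 was compared with AAV-EGFP in the same fit. edgeR called 0 of 4992 genes (0%), with a smallest adjusted p of 0.123. At an unadjusted p under 0.05 there were 443 (8.87%), 196 higher and 247 lower with AAV-B3GNT3, and in 654 (13.1%) the libraries did not overlap, with the treated ones higher in 6.51% and lower in 6.59% of genes tested. DESeq2 called 3 (0.0601%), Gm15398, Kcnc2 and Rgs6, all lower. Rgs6, a regulator of G-protein signalling, was at 974, 752 and 584 CPM with AAV-EGFP and 306, 273 and 469 with AAV-B3GNT3 and is named only because DESeq2 called it. Without aged AAV-B3GNT3 replicate 3, edgeR called 17.

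Mdh1 (ENSMUSG00000020321, chr11:21556787-21572367, minus strand), the cytosolic malate dehydrogenase, had the smallest p. It was at 94.3, 119 and 91.5 CPM with AAV-EGFP and 33.1, 32.6 and 23.9 with AAV-B3GNT3, a difference of -1.78 ± 0.32 (adjusted p = 0.123, edgeR). Young libraries lay between, at 42.3, 46.6 and 47.7 CPM.

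Kcnc2 (ENSMUSG00000035681, chr10:112271121-112467024, plus strand), a potassium channel of fast-spiking and some excitatory neurons, was at 241, 183 and 394 CPM with AAV-EGFP and 57.9, 53.1 and 47.9 with AAV-B3GNT3 (-2.39 ± 0.47, adjusted p = 0.155). The 3 treated libraries were close together and below all 6 others. Young libraries were at 131, 129.7 and 422 CPM. In young replicate 3, 111 of 168 UMIs came from 1 nucleus, so single nuclei could set a library's level. Gm15398 (ENSMUSG00000085456, chr10:73201399-73327175, minus strand), a long noncoding RNA, was at 115, 148 and 66.8 CPM with AAV-EGFP and 12.4, 12.2 and 41.0 with AAV-B3GNT3 (-2.23 ± 0.45, adjusted p = 0.155).

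St6galnac3 (ENSMUSG00000052544, chr3:153198266-153725174, minus strand), a sialyltransferase, was at 231, 194 and 222 CPM with AAV-EGFP and 484, 482 and 291 with AAV-B3GNT3, a difference of 0.97 ± 0.23 (adjusted p = 0.261). Swt1 was at 21.0, 18 and 17.6 CPM with AAV-EGFP and 49.6, 69.4 and 61.6 with AAV-B3GNT3 (1.70 ± 0.41, adjusted p = 0.261). Gpr137c (ENSMUSG00000049092, chr14:45219717-45282725, plus strand), an orphan receptor-like gene, was at 94.3, 50.4 and 63.3 CPM with AAV-EGFP and 223, 135 and 164 with AAV-B3GNT3 (1.44 ± 0.36, adjusted p = 0.261). In corticothalamic neurons 5 of the 6 treatment genes had the same sign and 0 were called by edgeR, where 0.157% of genes were. In other Slc17a7 neurons 6 of 6 had the same sign and 0 were called, where 0.294% were. Here too the sign counts have no share of all genes beside them and are a description.

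Of 6 neuronal genes that the study singled out in these samples, so that they are not independent evidence of a direction, 5 could be tested. Ccnd2 (ENSMUSG00000000184, chr6:127125162-127152193, minus strand), which encodes cyclin D2, was at 45.4, 54.7 and 60.3 CPM in young, 31.4, 28.8 and 24.6 in aged AAV-EGFP and 45.5, 85.7 and 88.9 in aged AAV-B3GNT3 libraries. The aged AAV-EGFP libraries lay below all 6 others. The difference was -0.93 ± 0.37 for ageing (adjusted p = 0.416) and 1.42 ± 0.38 for AAV-B3GNT3 (adjusted p = 0.261), neither past the threshold in edgeR. With AAV-B3GNT3 it rose in corticothalamic neurons by 1.15 (adjusted p = 0.0265) and in other Slc17a7 neurons by 0.94 (adjusted p = 0.0255). Rims4, a presynaptic scaffold gene, was at -0.52 for ageing and -0.02 for treatment, Foxo3 at -0.44 and 0.34, and Smad1 at -0.51 and 0.57. Wnt5a had 20 UMIs in all and was not tested.

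Among 12 near-projecting genes that the rule did not use, 6 were abundant enough to test and 0 passed the adjusted threshold in either comparison. Etv1 was at 87.6, 109 and 87.9 CPM in young, 451, 183 and 80.9 in aged AAV-EGFP and 45.5, 65.3 and 127 in aged AAV-B3GNT3 libraries, with 1.10 ± 0.42 for ageing (unadjusted p = 0.0175, edgeR) and -1.33 ± 0.46 for treatment (unadjusted p = 0.00976, edgeR). The groups overlapped, and aged AAV-EGFP replicate 1, with 9 nuclei, gave the highest value. Tle4 was at -0.55 ± 0.26 for treatment (unadjusted p = 0.0460, edgeR). Htr2c, Lypd1, Cpne7 and Rapgef3 had an unadjusted p above 0.05 in both comparisons.

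Gene lists for neuronal functions were read as counts and medians beside all genes tested, whose median was 0.01 for ageing and -0.01 for treatment (the plot of gene lists). No list held a gene past an adjusted p under 0.05 in edgeR, and the genes named from these lists were chosen after their values were seen. In all genes tested, 5.59% were higher and 4.53% lower at an unadjusted p under 0.05 with age, and 3.93% and 4.95% with AAV-B3GNT3.

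Nuclear genes of oxidative phosphorylation, which build the respiratory chain, had 6 of 33 members abundant enough to test. For ageing 6 of 6 were above 0 with a median of 0.54 (0.03 to 1.19), and 2, Atp5a1 and Cox5a, had an unadjusted p under 0.05. Cox5a was at 26.6, 22.3 and 27.6 CPM in young and 62.9, 32.4 and 59.8 in aged AAV-EGFP libraries. For treatment 5 of 6 were below 0 with a median of -0.55, and 3 had an unadjusted p under 0.05. The glucocorticoid receptor and its targets gave 6 of 7 below 0 for ageing (median -0.51) and 7 of 7 above 0 for treatment (median 0.43). Among them Sgk1, a kinase induced by glucocorticoids, was at 103, 129.7 and 133 CPM in young and 21.0, 79.2 and 87.9 in aged AAV-EGFP libraries (unadjusted p = 0.0214, edgeR). Nr3c1, the receptor itself, was at 108, 138 and 116 CPM in young and 105, 101 and 21.1 in aged AAV-EGFP libraries.

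Heat shock and chaperone genes were below 0 for ageing in 9 of 12 (median -0.26), with 0 at an unadjusted p under 0.05. Of 6 immediate-early genes tested, which respond to activity, 5 were below 0 for ageing (median -0.34), and Nr4a3 alone reached an unadjusted p under 0.05. Circadian clock genes were balanced, with 6 of 13 above 0. Cytosolic ribosomal protein genes, 39 in the list, were too sparse to test.

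Receptors and channels stood near 0 for ageing, for which 50.5% of all genes were above 0. Glutamate receptors had 11 of 20 above 0 (median 0.03), sodium, calcium and HCN channels 11 of 18 (median 0.06), and presynaptic release genes 15 of 26 (median 0.07). Synaptic adhesion genes had 10 of 23 above 0 (median -0.01). For treatment all 4 lists had medians below 0: 2 of 20 glutamate receptors were above 0 (median -0.28), 2 of 18 sodium, calcium and HCN channels (median -0.13), 8 of 26 release genes (median -0.12) and 4 of 23 synaptic adhesion genes (median -0.21), where 49% of all genes were above 0. The metabotropic receptor gene Grm8 was at 1016, 1194 and 721 CPM with AAV-EGFP and 525, 599.9 and 643 with AAV-B3GNT3 (-0.73 ± 0.21). The contactin gene Cntn6 was at 472, 353 and 218 CPM with AAV-EGFP and 186, 151 and 236 with AAV-B3GNT3 (-0.79 ± 0.27). Both had an unadjusted p under 0.05 in edgeR, as did 1 higher gene in each of the glutamate receptor and release lists, the kainate receptor gene Grik4 (0.77 ± 0.36) and the synaptic vesicle gene Sv2c (1.19 ± 0.52). These genes share nuclei and libraries, so a count over a list is a description.

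**Figure D5:**
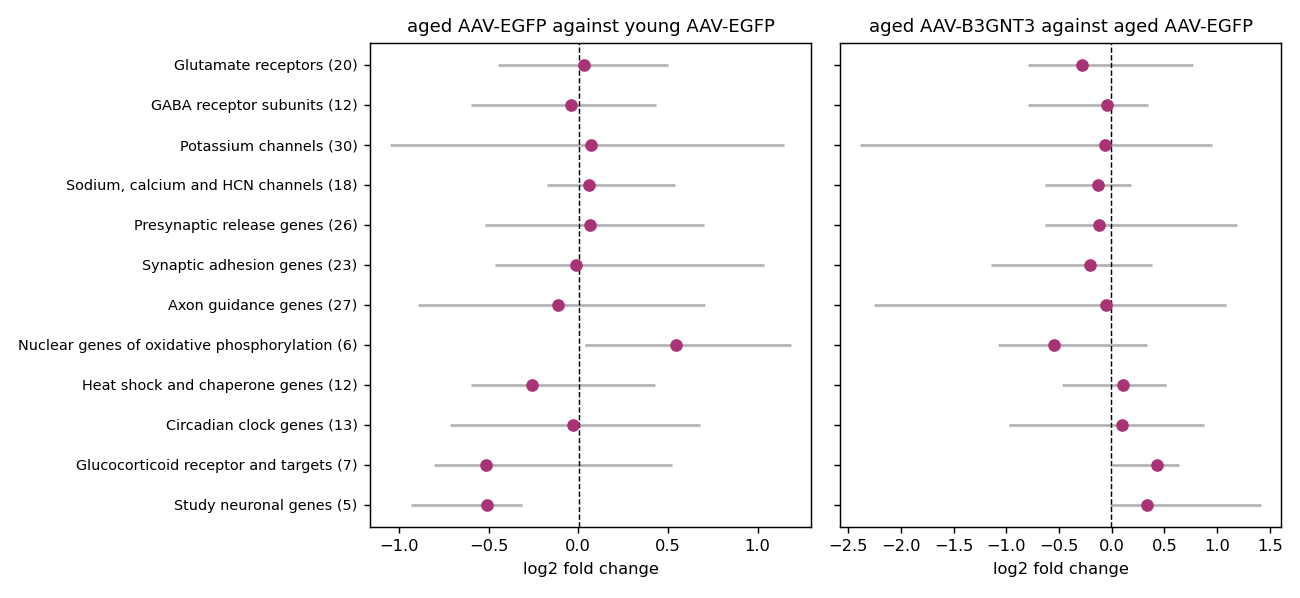
Log2 fold changes of gene lists in Tshz2+Vwc2l+ neurons for ageing (left) and for AAV-B3GNT3 (right). Points are list medians, lines reach from the lowest to the highest gene, the number tested is in brackets, and the dashed line is the median of all 4992 genes; glutamate receptors lay at a median of -0.28 for treatment and 0.03 for ageing.

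Potassium channels had 17 of 30 above 0 for ageing, where Kcnh5 was at 1.15 ± 0.34 and Kcnd3 at -1.05 ± 0.24. Axon guidance genes had 18 of 27 below 0 for ageing (median -0.11), among them the ephrin receptor gene Epha7, at 261, 458 and 266 CPM in young and 178, 176 and 176 in aged AAV-EGFP libraries. GABA receptor subunits had a median of -0.04 for ageing and -0.04 for treatment, and 5 of 10 receptors for monoamines, acetylcholine and peptides were above 0 for ageing. Of 8 nuclear long noncoding RNAs tested, 5 were above 0 for ageing (median 0.04), and 2 had an unadjusted p under 0.05, with opposite signs. Gm26917 was at 133, 72.9 and 148 CPM in young, 52.4, 61.2 and 63.3 in aged AAV-EGFP and 153, 127 and 82.1 in aged AAV-B3GNT3 libraries (-0.96 ± 0.33 for ageing and 0.98 ± 0.34 for treatment). Malat1 was at 20837, 27232 and 17573 CPM in young, 28753, 27617 and 31867 in aged AAV-EGFP and 19573, 18365 and 24106 in aged AAV-B3GNT3 libraries, with 0.43 ± 0.18 for ageing and -0.51 ± 0.18 for treatment.

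Markers of other cell types were summed per library. The summed CPM of 6 oligodendrocyte markers was 133 to 411 in young, 109 to 371 in aged AAV-EGFP and 184 to 232 in aged AAV-B3GNT3 libraries, and 8453 to 12342 in the oligodendrocyte gate. That of 6 astrocyte markers was 1272 to 1485, 830.1 to 1241 and 800.2 to 1224, so that young and aged libraries did not overlap. The 3 groups did not differ past the threshold (exact permutation p = 0.171). In corticothalamic nuclei these markers summed to 819 to 1265 CPM and in other Slc17a7 neurons to 543 to 1058. Most of the member sum came from Slc1a2, Gpc5 and Slc4a4. Of the defining genes, Aqp4 had 2, 2 and 0 UMIs in young, 0 in each aged AAV-EGFP and 2, 0 and 0 in aged AAV-B3GNT3 libraries, and Gja1 had 0, 3 and 2, then 0 in each, and 0, 3 and 0. Microglial markers summed to 28.2 to 30.4, 36.0 to 94.3 and 24.5 to 53.7 and endothelial markers to 2.03 to 34.4, 7.03 to 10.5 and 0 to 12.4. GABAergic markers other than Gad1 and Gad2 summed to 480.2 to 615, 464 to 1009 and 306 to 533, mostly from Nxph1, Erbb4 and Adarb2, while Slc32a1 had 4 UMIs. Their part in the gene results was not tested.

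The comparison of aged AAV-B3GNT3 with young mice shares libraries with both others. edgeR called 0 of 4992 genes (0%), with 349 (6.99%) at an unadjusted p under 0.05, 3.41% higher and 3.59% lower. In 657 (13.2%) the libraries did not overlap, 7.01% higher and 6.15% lower. The fold change was above 0 in 51% of genes, and in 4 of 20 glutamate receptors and 5 of 27 axon guidance genes. DESeq2 called 2 (0.0401%), Kcnc2 and the netrin receptor gene Unc5c, both lower. Unc5c was at 437, 606 and 475 CPM in young and 182, 265 and 253 in aged AAV-B3GNT3 libraries, and 133 of the 299 UMIs in young replicate 2 came from 1 nucleus.

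Whether a change was larger or smaller in these neurons than in the most similar ones was tested as an interaction, with mouse as a block. Against corticothalamic neurons 0 of 8920 genes (0%) differed in their change with age by edgeR, with 391 (4.38%) at an unadjusted p under 0.05. No other tool was run for the interactions. For AAV-B3GNT3, 2 (0.0224%) differed, and 4.82% had an unadjusted p under 0.05. Mthfd1l, a mitochondrial enzyme of folate metabolism, was at 57.9 ± 23.4 CPM with AAV-EGFP and 26.5 ± 7.05 with AAV-B3GNT3 in members, and at 24.2 ± 2.61 and 57.8 ± 1.99 in corticothalamic neurons. The member values rest on 3, 21 and 19 UMIs with AAV-EGFP and 6, 5 and 10 with AAV-B3GNT3. edgeR did not call the member change (adjusted p = 0.365) but called the corticothalamic rise of 1.23 (adjusted p = 0.00642). The changes differed by -2.41 ± 0.42 (adjusted p = 0.0403, edgeR). Prr16 was at 580 ± 182 and 649.9 ± 94.9 CPM in members and at 146 ± 26.5 and 74.5 ± 7.19 in corticothalamic neurons, a difference of 1.23 ± 0.21 (adjusted p = 0.0403, edgeR). Each kept the call in 2 of the 9 fits that left out 1 library, those without aged AAV-EGFP replicate 1 or young replicate 3.

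Against other Slc17a7 neurons, 3 of 14138 genes (0.0212%) differed in their change with age and 7 (0.0495%) in that with AAV-B3GNT3. At an unadjusted p under 0.05 it was 3.88% with age and 4.85% with AAV-B3GNT3. Nxph1 was at 214, 217 and 188 CPM in young and 377, 363 and 559 in aged AAV-EGFP members, and its change exceeded that in other Slc17a7 neurons by 1.33 ± 0.26 (adjusted p = 0.0120, edgeR). In aged AAV-EGFP replicate 3, 135 of its 159 UMIs came from 1 nucleus. Abi3bp, an extracellular matrix binding protein, differed by 2.68 ± 0.47 (adjusted p = 0.00248), but 24 of the 27 UMIs in aged AAV-EGFP replicate 3 came from 1 nucleus, and all 32 UMIs of Gm10635, the third gene, came from 1 nucleus of young replicate 3. For AAV-B3GNT3, Kcnc2 differed by -2.03 ± 0.32 (adjusted p = 1.49e-04, edgeR) and the netrin G gene Ntng1 by -2.39 ± 0.39, where 121 of 201 UMIs in aged AAV-EGFP replicate 3 came from 1 nucleus. Ntng1 was at 518 ± 349 CPM with AAV-EGFP and 111 ± 114 with AAV-B3GNT3 in members, and at 249 ± 115 and 231 ± 55.7 in other Slc17a7 neurons. Its member libraries overlapped, with 11, 203 and 201 UMIs with AAV-EGFP and 10, 12 and 71 with AAV-B3GNT3. Kctd16, an auxiliary subunit of GABA-B receptors, was at 885 ± 218 and 1102 ± 72.9 CPM in members and at 1839 ± 228 and 1225 ± 175 in other Slc17a7 neurons (difference 1.0 ± 0.20, adjusted p = 0.0120). Thsd7b differed by 1.83 ± 0.37 (adjusted p = 0.0120, edgeR). It was at 58.8 ± 53.1 CPM with AAV-EGFP and 204 ± 133 with AAV-B3GNT3 in members, where the libraries also overlapped.

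In the 9 fits that left out 1 library, Kcnc2 and Ntng1 kept the call in 9, Nxph1, Gm10635 and the ageing difference of Abi3bp in 8, and Kctd16, Thsd7b and the treatment difference of Abi3bp in 7. Thsd7b ran from 1.22 without aged AAV-EGFP replicate 2, where the call was lost, as it was without aged AAV-B3GNT3 replicate 1, to 3.22 without aged AAV-EGFP replicate 3. Without aged AAV-EGFP replicate 3 the ageing difference of Abi3bp was 1.57 and its treatment difference -1.46, both calls lost, and the latter was also lost without aged AAV-B3GNT3 replicate 3. Kctd16 lost the call without aged AAV-EGFP replicate 2 (0.77) or aged AAV-B3GNT3 replicate 2, Nxph1 without young replicate 2 and Gm10635 without young replicate 3. With nuclei thinned to 4000 UMIs, 0 genes were called higher with age and 1 lower, so Nxph1 and Abi3bp lost the ageing call. For AAV-B3GNT3, 2 were called higher and 1 lower, so at most 1 of Kcnc2, Ntng1 and Abi3bp kept the call.

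Because Slc17a7 sat at its threshold, the tests were repeated without the Slc17a7 minimum, a setting added after the counts were seen. It gave 1098 nuclei, 79 to 201 per library, with sums of 890905 to 2053811 UMIs, that contain the 237 members, and its other nuclei need not all be glutamatergic. With age, 40 of 9401 genes (0.425%) changed by edgeR, 30 higher (0.319%) and 10 lower (0.106%). Of these, 29 had been tested in the members and 29 had the same sign there, which is no independent check since the nuclei are shared.

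Genes that rose in the wider gate included Stmn1, a regulator of microtubules (1.21 ± 0.16, adjusted p = 0.00677), Npcd (2.30 ± 0.37), AC149090.1 (1.91 ± 0.31), Fth1 (1.55 ± 0.25), Zc3h6 (1.23 ± 0.22), the glycolytic gene Gapdh (1.38 ± 0.26), the mitochondrial ADP/ATP carrier gene Slc25a4 (1.11 ± 0.22), the ribosomal gene Rpl37 (2.22 ± 0.37) and Nxph1 (0.97 ± 0.19). Genes that fell included Dscaml1 (-0.95 ± 0.17), the chaperone gene Hsph1 (-0.96 ± 0.17, adjusted p = 0.0272) and the calcium sensor gene Kcnip3 (-1.0 ± 0.21). Slc1a3, a glutamate transporter of astrocytes, fell by 2.31, and in members it had 42 of 84 UMIs in young replicate 2. Of 6 oligodendrocyte markers in the wider gate, 1 was above 0 with age (median -0.61) and 6 with AAV-B3GNT3 (median 0.52), with 0 past the adjusted threshold. The part of astrocyte or oligodendrocyte RNA in the wider gate was not tested. Genes named here beyond the 6 above were chosen after their values were seen. Oxidative phosphorylation genes, of which 27 could be tested in it, were above 0 in 24, with a median of 0.65, and 0 passed the adjusted threshold. For AAV-B3GNT3, 2 genes (0.0213%), the noncoding RNAs Gm15478 (-2.27 ± 0.28) and 4930545L23Rik (-2.29 ± 0.33), fell. In aged AAV-B3GNT3 against young mice 5 rose (0.0532%): Npcd, Gm20629, Zfp697, Dpp4 and Gm9866.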

How the data were processed

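snRNA-seq libraries were made from 9 mice with 10x Genomics 3′ chemistry, and the authors deposited filtered matrices of raw UMI counts per gene and nucleus, made with Cell Ranger 4.0.0 per the submitters' processing notes, whereas the matrix headers give 7.2.0. Some genes are not reported here. Free RNA was not subtracted here, and likely doublets were left out in an alternative. Positions are GRCm38 with GENCODE vM21, which held 31011 of 31053 genes listed. Members and lists were chosen with earlier results of these data known.

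Member UMIs were summed per library. Genes passing filterByExpr (minimum count 10) were scaled by TMM and fitted with edgeR 4.0.16 (quasi-likelihood, 9 libraries, no block; BH adjusted p under 0.05), with DESeq2 1.42.0 as an alternative. The gate genes stayed in totals and out of tests. Named were the 3 genes of smallest p in each direction with at least 10 UMIs per library on average and groups that do not overlap, all genes of 2 lists, and the 5 smallest p of each interaction. Interactions used mouse as block. Shares were compared with exact permutation tests. Doublets were scored with Scrublet in scanpy 1.11.5, with 0.8% marked per 1000 barcodes. In a test on simulated data for ageing, 4658 genes were tested after the filter on low counts. Among them edgeR recovered 43.5% of 92 genes changed by 1 log2 unit and all 79 changed by 2, with 5 false calls. Changed genes that failed the filter are not counted in these shares. The simulated counts held no single nucleus with most of a gene's UMIs, so these shares need not hold for the members. In the members edgeR did not call Kcnc2 for treatment, at -2.39 (adjusted p = 0.155). Replicate numbers were not used as pairs in the main fits. Of 9 same-numbered pairs 0 correlated over 0.1, while 6 of 9 libraries correlated best with their own number. Whether same-numbered libraries shared a batch was not tested. Mice are separate animals, and 3 per group limit precision. Alternatives were other tests, scalings, filters, gates, depths and each library left out.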

Additional observations from a re-analysis of the deposited data

Results flagged for a closer look

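In 12 cases the change in Tshz2+Vwc2l+ neurons differed from that in a reference gate by an interaction test in edgeR with an adjusted p under 0.05. Against corticothalamic neurons with AAV-B3GNT3, Mthfd1l differed by -2.41 on the log2 scale and Prr16 by 1.23. Against other Slc17a7 neurons with age, Abi3bp differed by 2.68, Nxph1 by 1.33 and Gm10635 by -11.22. Against other Slc17a7 neurons with AAV-B3GNT3, Kcnc2 differed by -2.03, Ntng1 by -2.39, Abi3bp by -2.59, Kctd16 by 1.0, Thsd7b by 1.83, Chst9 by 10.41 and Sorcs1 by 1.02. The values of Gm10635 and Chst9 depend on the fitted prior and are no bounds, since Gm10635 was at 0 in 8 member sums and Chst9 in all 3 aged AAV-EGFP ones. Chst9 and Sorcs1 fall outside the rule for named genes and were chosen after their values were seen. With 1 library left out, Sorcs1 ran from 0.68 without aged AAV-EGFP replicate 2 to 1.28 and kept the call in 6 of 9 fits, and Chst9 kept it in 8 of 9.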

How the results depend on the processing

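Unless stated, values are those for aged minus young AAV-EGFP mice. The share of kept nuclei (-0.254 percentage points, exact permutation p = 0.0321) was -0.122 without members holding glial RNA, -0.0260 with the gate read after thinning and -0.704 without the Slc17a7 minimum (exact permutation p = 0.0571), none past the threshold. Leaving out 1 library gave -0.289 to -0.205. The share of Slc17a7 neurons (-1.38, not past the threshold) was -1.77 with no upper limit on genes, past the threshold, -0.448 without members holding glial RNA, -0.171 after thinning, and -1.91 to -0.821 with 1 library left out. The median UMIs per nucleus differed by 160.3 without glial RNA, a turned sign, and by -848 to 478 with 1 library left out, turned without young replicate 3. None of these UMI differences passed the threshold, and the cause was not tested.

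Counts of genes called, 0 in each of 3 comparisons by edgeR, were 3 for ageing, 3 for treatment and 2 for aged AAV-B3GNT3 against young by DESeq2, 47, 56 and 53 with no filter on low counts, and 40, 2 and 5 without the Slc17a7 minimum. The stricter and the looser gate each called 1 for ageing, and a fit of the 6 libraries compared called 1 for treatment. Leaving out 1 library gave 0 to 2, 0 to 17 and 0 to 2, with 2 for ageing without aged AAV-EGFP replicate 1 and 1 without young replicate 1 or 3. For treatment it was 17 without aged AAV-B3GNT3 replicate 3 and 1 without young replicate 3, and for the third comparison 2 without aged AAV-B3GNT3 replicate 3 and 1 without young replicate 1. RLE size factors, likely doublets out, glial RNA out, no upper limit on genes, thinning and the shares of Tle4-high or Cux2-high nuclei as covariates called 0 in all 3.

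With the replicate number as a block, 0 genes were called for ageing, 1 (Kcnc2) for treatment and 0 for the third comparison. The numbers share no animal, the 9 pairs correlated at -0.0875 to 0.0988, and 6 of 9 libraries correlated best with their own number.

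The interaction counts against corticothalamic neurons, 0 for ageing and 2 for treatment, were 2 and 0 when thinned, 0 and 1 without likely doublets, and 0 to 4 and 0 to 3 with 1 library left out. Against other Slc17a7 neurons, 3 and 7 became 1 and 3 when thinned, 8 and 14 without likely doublets, and 6 to 24 and 12 to 33 with 1 library left out. The largest were 24 for ageing without young replicate 3 and 33 for treatment without aged AAV-EGFP replicate 3; the cause was not tested. Of the values of single named genes under alternatives, 348 kept their side of the threshold and sign, 27 came to pass it, 38 lost it and 0 turned. Since edgeR called no gene in the group comparisons, only interaction calls could be lost.

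With 9 nuclei in 1 library, 100062 to 633979 UMIs per sum and 3 mice per group, single nuclei can set a gene's level in a library. In simulated data 43.5% of genes that were changed by 1 log2 unit and passed the filter on low counts were recovered. Smaller changes were not simulated. Larger changes in the members also went uncalled by edgeR, such as that of Kcnc2 with AAV-B3GNT3 at -2.39. The rule mixes Tle4-high and Cux2-high nuclei and leaves out others by 1 UMI of Slc17a7.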
